A study of Mus musculus with 9 samples.

Results

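CRX is a paired-type homeodomain transcription factor, known for its role in photoreceptors, where it binds DNA through a TAATCC core and activates genes of the visual cycle. It is not normally made by fibroblasts, the connective tissue cells that secrete collagen and other matrix and that can take on a contractile state with smooth muscle actins. The libraries of cells given CRX from either a eutherian or a metatherian mammal were taken here as 1 group and compared with the control libraries, so that each value is pooled over both orthologues. The CRX group was chosen by its labels alone, and it holds 6 of the 9 libraries of the series, with the other 3 as control.

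All cells were primary mouse embryonic fibroblasts (MEFs) of the C57Bl/6 strain at passage 2, electroporated with a plasmid that carried a puromycin resistance gene. In the eutherian CRX cells the plasmid also carried V5-tagged human *CRX*, in the metatherian CRX cells V5-tagged opossum *CRX*, and in the control cells no homeobox gene. Every group, control included, was kept in puromycin for 5 days. The labels give 48 h of recovery after selection, whereas the methods of the study place that recovery before it and give culture overnight after it. Each condition has 3 libraries, numbered 1 to 3. RNA was taken in triplicate, and no source used here says that the triplicates were separate cultures. The p-values therefore measure the spread between these libraries, which may be technical. With both orthologues in 1 arm, differences between them also enter that spread and the SE of each pooled value. In bulk RNA, fewer cells that express a gene and less of its RNA in each cell cannot be told apart. Cells with an electroporated plasmid are a mixed population, and the share that carried it was not measured here.

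Between 54145701 and 94699657 counts fell on genes in each library. Of 22068 genes listed, 10100 were kept for testing. The libraries numbered 3 stood apart from those numbered 1 and 2, as the chi-square between the counts of 2 replicates, divided by its degrees of freedom, was 271 to 801 for pairs with number 3 and 22 to 70.4 for the first and second of each condition. The first principal component of log2 CPM (counts scaled to library size), with 56.0% of the variance, was highest in the library numbered 3 of each condition. The second, with 16.2%, placed all 6 CRX libraries on one side, at 1.17 to 14.5, and the control libraries on the other, at -6.35, -15.1 and -36.1. All 16 fibroblast markers listed were kept.

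**Figure D1:**
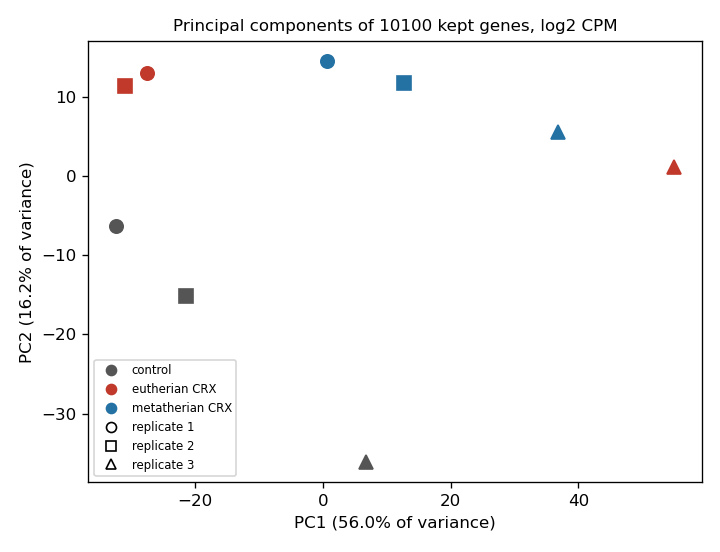
Each point is 1 library, plotted by its first and second principal component over the log2 CPM of the 10100 kept genes, with colour for the condition and shape for the replicate number. The 3 control libraries lie at -6.35 or lower on the second component, and the 6 CRX libraries lie at 1.17 or higher.

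Reads on the mouse *Crx* gene were counted in the eutherian CRX libraries, with 627, 995 and 313 counts (7.82, 14.7 and 4.14 CPM), and not in any control library, with 0 counts in each. With 3 counts in each control library as the floor that a count of 0 allows, the mean of the eutherian CRX libraries was at least 199.85-fold higher than control. In the metatherian CRX libraries 4, 0 and 0 counts were found. The gene counted is the mouse gene on chromosome 7, and whether reads of the human or the opossum sequence reached it was not tested, so that the level of the introduced gene is not known for the metatherian CRX cells from these counts. Of 43 photoreceptor genes bound by CRX in retina, 6 were kept in these fibroblasts, *Crx* itself among them, and none was called. *Gnb1*, a transducin-family beta subunit, had all 6 CRX libraries above control at a log2 fold change of 0.16, and *Mef2c*, *Mef2d*, *Unc119* and *Rom1* had overlapping values between -0.15 and 0.08.

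The question of which genes respond to either orthologue was addressed by a fit with the 6 CRX libraries as 1 arm. By edgeR's quasi-likelihood test with the replicate number as a block, 1 gene rose and 12 fell with CRX at an adjusted p under 0.05. These are 0.0099% and 0.119% of the 10100 genes tested. The gene that rose was *Sqrdl*, a mitochondrial enzyme of sulfide oxidation. The genes that fell encode growth factor signalling proteins (*Igf1*, *Spry1*, *Rasl11b*), matrix and cell-surface proteins (*Smoc1*, *Adam12*), a glycosyltransferase (*Wbscr17*), proteins of DNA replication and chromosome condensation (*Lig1*, *Ncapd2*), a kinesin-family protein (*Kif26b*), an RNA-binding protein (*Zfp36l1*), an amino acid transporter (*Slc7a5*) and a ubiquitin ligase (*Pdzrn3*). All 13 have the same adjusted p of 0.0408, the lowest over all genes. Before adjustment, p was under 0.05 for 458 genes with a positive and 822 with a negative log2 fold change, and the median log2 fold change over all genes was 0.0014.

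The calls rest on the block and on most single libraries. Without the replicate block edgeR called 0 genes in either direction, although 344 positive and 598 negative changes had an unadjusted p under 0.05. With each library left out in turn, edgeR called 0 genes without control replicate 1, 2 or 3, eutherian CRX replicate 1 or metatherian CRX replicate 1 or 2. When eutherian CRX replicate 2 was left out it called 1 gene that rose and 16 that fell, 8 of these 17 being among the 13. When eutherian CRX replicate 3 was left out it called 0 and 6, with 4 of the 13, and when metatherian CRX replicate 3 was left out 1 and 22, with 10 of the 13. DESeq2 and limma voom called all 13 and many more, with 97 higher and 339 lower, and 999 higher and 1217 lower.

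A count that needs no model gives the libraries themselves. In 422 genes, or 4.18% of those tested, all 6 CRX libraries lay below all 3 control libraries, and in 258 genes, or 2.55%, all 6 lay above. Against the control library of the same number, all 6 CRX libraries were lower for 991 genes (9.81%) and higher for 741 genes (7.34%). Of the 12 genes that fell, 11 had all 6 CRX libraries below all control libraries, the exception being *Pdzrn3*. *Sqrdl* overlapped between the groups, and all 13 lay on 1 side of the control of the same number.

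*Wbscr17* (now *Galnt17*), at chr5:130874951-131307522 of mm10, a glycosyltransferase that starts O-linked sugar chains, had 62.4, 84.0 and 138 CPM in the 3 control libraries and 19.2 to 46.9 CPM with CRX, with a median of 22.9. The highest CRX value, in metatherian CRX replicate 3, was still below the lowest control. The log2 fold change was -1.82 ± 0.23 (SE, 6 CRX against 3 control libraries, adjusted p = 0.0408 by edgeR). *Igf1*, at chr10:87858270-87937047, the insulin-like growth factor that fibroblasts secrete, had 72.3, 58.3 and 36.8 CPM in control and 5.98 to 25.3 CPM with CRX, with a median of 17.5. It fell by 1.81 on the log2 scale (SE 0.23), and the lowest value was that of eutherian CRX replicate 3. *Spry1*, at chr3:37639846-37644599, an inhibitor of receptor tyrosine kinase signalling, had 21.5, 28.1 and 47.4 CPM in control and 7.54 to 16.5 CPM with CRX, with a median of 7.99. It had the smallest unadjusted p of all genes, 4.52e-06, at a log2 fold change of -1.72 ± 0.16.

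*Adam12*, at chr7:133883196-134232149, a membrane metalloprotease of mesenchymal cells, had 24.1, 23.9 and 38.1 CPM in control and 8.72 to 18.1 CPM with CRX, with a median of 10.3 and a log2 fold change of -1.34 ± 0.15. *Rasl11b*, at chr5:74195326-74199477, a small GTPase of the RAS superfamily, had 7.25, 6.90 and 15.2 CPM in control and 2.89 to 5.25 CPM with CRX, at -1.32 ± 0.15. In both genes the control numbered 3 was the highest control library, and the CRX libraries lay below it and the others alike. *Pdzrn3*, at chr6:101149607-101377897, a ubiquitin ligase with PDZ domains, had 44.4, 66.6 and 109 CPM in control and 18.6 to 46.4 CPM with CRX. Its highest CRX library, metatherian CRX replicate 3, passed the lowest control, so that the groups overlapped, while the log2 fold change was -1.38 ± 0.15.

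*Smoc1*, at chr12:81026808-81186414, a secreted calcium-binding matrix protein, had 39.2, 35.5 and 28.0 CPM in control and 11.7 to 22.2 CPM with CRX, at -0.97 ± 0.12. *Ncapd2*, at chr6:125168007-125191668, a condensin subunit that compacts chromosomes for mitosis, had 25.7, 28.0 and 40.6 CPM in control and 14.4 to 21.1 CPM with CRX, at -0.89 ± 0.11. *Lig1*, at chr7:13277313-13311427, the ligase that joins Okazaki fragments, was even within each group, with 20.5, 21.2 and 21.3 CPM in control and 10.7 to 12.8 CPM with CRX, at -0.87 ± 0.11. *Kif26b*, at chr1:178525741-178939200, an unusual kinesin of embryonic mesenchyme, had 72.2, 76.7 and 109 CPM in control and 40.2 to 58.2 CPM with CRX, at -0.80 ± 0.10. *Zfp36l1*, at chr12:80107760-80113013, which promotes decay of RNAs with AU-rich elements, had 93.1, 129 and 119 CPM in control and 58.5 to 80.5 CPM with CRX, at -0.77 ± 0.09. *Slc7a5*, at chr8:121881146-121907686, the LAT1 transporter of large neutral amino acids and a gene that ATF4 is known to activate, had 52.4, 49.3 and 53.2 CPM in control and 27.8 to 34.7 CPM with CRX, at -0.72 ± 0.09.

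*Sqrdl* (now *Sqor*), at chr2:122764928-122809569, had 82.4, 83.7 and 42.3 CPM in control and 126, 122 and 73.8 CPM with eutherian CRX. The metatherian CRX libraries had 123, 128 and 72.8 CPM. Within each number the CRX libraries were higher, and the libraries numbered 3 were the lowest of each condition, so that both CRX libraries numbered 3 lay below the first and second control. The log2 fold change was 0.65 ± 0.08, and it was 0.65 with either orthologue alone.

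**Figure D2:**
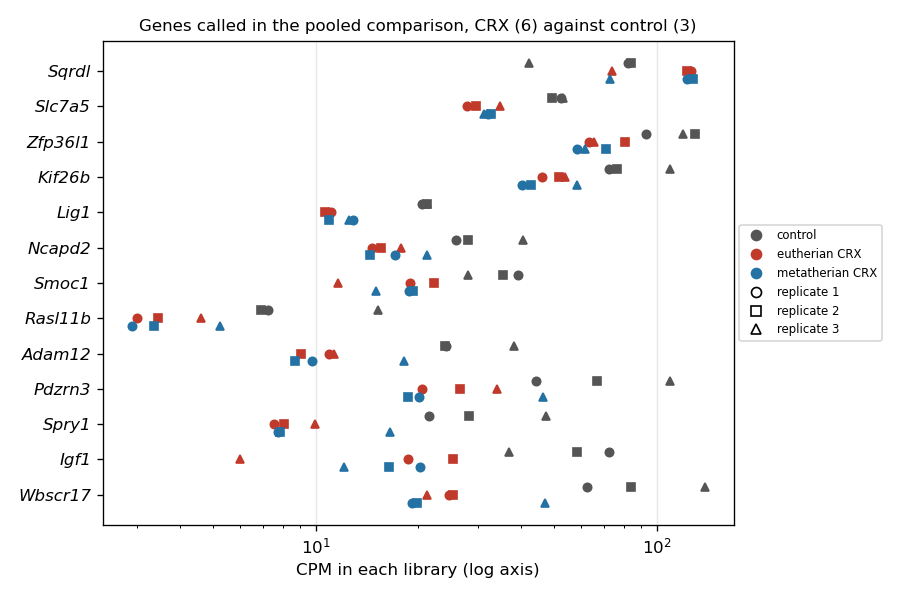
CPM of the 13 called genes in each library on a log axis, with control in grey, eutherian CRX in red and metatherian CRX in blue, and with shape for the replicate number. The CRX points lie to the left of all control points for 11 genes, overlap them for *Pdzrn3*, and lie to the right of the control of the same number for *Sqrdl*.

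All 13 genes had the same sign with either orthologue. In the direct comparison of metatherian with eutherian CRX edgeR called 0 genes, with 1165 at an unadjusted p under 0.05, and none of the 13 was among the latter. The difference between the orthologues was 0.11 ± 0.30 (log2, metatherian minus eutherian, SE) for *Wbscr17*, 0.24 ± 0.18 for *Spry1*, -0.13 ± 0.09 for *Zfp36l1* and 0.00 ± 0.09 for *Sqrdl*, which does not show that they act alike. Each orthologue was compared with the same 3 control libraries, so that the values of the 2 comparisons are not independent. Of the 13, 10 were called with eutherian CRX alone and 0 with metatherian CRX alone, a contrast that was tested only by the direct comparison above.

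Where no more genes were called, genes with all 6 libraries on 1 side were taken by the smallest p. None of these passed the adjusted threshold. *Kcne4*, a potassium channel subunit, had 8.82, 11.4 and 11.7 CPM in control and 1.35 to 5.73 CPM with CRX, at a log2 fold change of -2.13 ± 0.30 (adjusted p = 0.0526 by edgeR). Above control lay *Dach1*, a transcriptional cofactor of retinal and limb development, with 12.5, 10.7 and 10.0 CPM in control and 17.0 to 22 CPM with CRX, at 0.85 ± 0.12 (adjusted p = 0.0526 by edgeR). *Ctnnal1* (alpha-catulin) was at 0.66, *Dpy19l1* (a C-mannosyltransferase) at 0.54, *Ppm1l* (a protein phosphatase) at 0.44 and *Prps2* (phosphoribosyl pyrophosphate synthesis) at 0.53. *Tdrd7* (RNA granules) was at 0.41, *Samd12* at 0.85, *Sema3a* (a secreted guidance cue) at 0.68, *S100a7a* at 1.00 and *Snapc1* (snRNA gene transcription) at 0.46. *Abcb1a*, the P-glycoprotein drug efflux pump, had the highest fold change of these at 1.45 ± 0.32, with 10.5, 13 and 8.65 CPM in control and 16.7 to 39.5 CPM with CRX. *Akr1c18*, a steroid-converting reductase, was at 1.29, a value that is uncertain because close relatives of the gene could share its reads.

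The lists below were described by their counts and medians, to be read against the shares over all genes given above. In 10 of the lists the members named are the 3 most abundant and any that were called, and further members, with those named in the remaining lists, were chosen after their values had been seen.

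The genes of mitosis had lower values with CRX in nearly every member. A gene was kept where its mean FPKM (counts scaled to length and library size) exceeded 2 in any condition, and 16 of the 44 kept of 57 listed passed through control alone, where they were higher, so the direction of the kept members is in part fixed by that filter. With filterByExpr alone, which asks for a minimum count in any 3 libraries, all 57 listed genes were tested, so none was left out for its level. Of these 57 had negative log2 fold changes, with a median of -1.02, and 55 had all 6 CRX libraries below the control of the same number, against 10.4% of all genes in that fit. With the filter set instead on the mean FPKM over all 9 libraries, 33 genes were tested, with 33 negative, 32 below and a median of -0.93. The median of the 44 kept was -1.08, from -1.49 with eutherian CRX and -0.70 with metatherian CRX. All 6 CRX libraries lay below all control libraries for 18 of the 44, and 42 had an unadjusted p under 0.05, but 1, *Ncapd2*, was called. *Cdk1*, the kinase that starts mitosis, had 30.5, 33.5 and 41.3 CPM in control and 16.9 to 28.1 CPM with CRX, at -0.75 ± 0.17. *Top2a*, the topoisomerase of dividing cells, had 54.4, 58.6 and 78.4 CPM in control and 17.0 to 51.7 CPM with CRX, at -1.14 ± 0.28. *Plk1*, a mitotic kinase, had 4.57, 5.53 and 17.0 CPM in control and 1.32 to 4.34 CPM with CRX, at -1.49 ± 0.32. *Smc4*, a condensin subunit, was at -0.48, and *Spc25*, a kinetochore protein, overlapped between the groups at -0.17 ± 0.16. *Aurkb* at -1.36, *Nuf2* at -1.43, *Birc5* at -1.19 and *Kif11* at -1.20 had all 6 CRX libraries below.

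Mitosis RNA also differed between the libraries of control. The mean log2 CPM of the 44 genes, relative to the mean of control, was -0.37 and -0.20 in control replicates 1 and 2 and 0.57 in control replicate 3. Metatherian CRX replicate 3, at -0.30, therefore lay above control replicate 1, and the group score overlapped even though each CRX library lay below the control of its own number. The differences within a number were -1.21, -1.35 and -1.46 with eutherian CRX and -0.45, -0.85 and -0.86 with metatherian CRX.

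By the mean of its kept genes, the DNA replication and S phase list did not overlap between the groups. Of 63 genes 50 were kept, 8 of them through control alone, with a median of -0.41, 24 with all 6 CRX libraries below all control libraries and 0 above. With filterByExpr alone all 63 were tested, 61 were negative with a median of -0.46, and 28 had all 6 below. The score of the 50 kept genes was between -0.11 and 0.11 in the control libraries and between -0.63 and -0.43 in the CRX libraries. Its direction is in part fixed by the filter, and no score without the 8 genes is given here. *Tk1*, thymidine kinase, had 5.75, 6.88 and 7.49 CPM in control and 2.84 to 3.54 CPM with CRX, at -1.10 ± 0.16. *Mcm5* and *Mcm3*, subunits of the replicative helicase, were at -0.88 and -0.94, *Uhrf1*, which maintains DNA methylation at the fork, at -1.05, and *Ccna2*, cyclin A2, at -1.22. The 3 most abundant members showed little of this, with *Rrm2* at -0.17 ± 0.09, *Rpa1* at -0.10 ± 0.09 and *Orc6* at -0.02 ± 0.16, all overlapping.

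The regulators of G1 were mixed in direction. Their mean log2 CPM overlapped between the groups, with each CRX library below the control of its number, at differences of -0.34 to -0.04. Against that control 4 members were lower in each CRX library and 1 higher. Of 18 kept, 7 were positive, and the median was -0.06, which ran from -0.12 (without metatherian CRX replicate 2) to -0.03 (without control replicate 3). *Rb1*, which restrains entry into S phase, had 39.5, 34.1 and 39.4 CPM in control and 42.1 to 66.4 CPM with CRX, all 6 above, at 0.41 ± 0.12, and *Cdk2* had all 6 below at -0.47 ± 0.11. *Cdkn1a* (p21) was at 0.00, and the 25 kept p53 targets had a median of 0.10 with 2 above and 1 below, and of 0.045 without metatherian CRX replicate 1.

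*Ncapd2*, picked as the mitosis gene among the named lower genes and not for its motifs, is shown with the sequence before its start. Short motifs known from promoters of cell cycle genes can be read in it. Beside it stands *Abcb1a*, the one-sided gene with the highest fold change that has an entry in the promoter table. Both are RefSeq sequences of GRCm38.p6, written 5′ to 3′ on the strand of the gene and ending before the start of the gene in the annotation that was counted. Capitals mark CCAAT (the NF-Y box) and TTTGAA (the CHR element) on either strand, so that ATTGG and TTCAAA are the same motifs on the other strand. No TAATCC was found in either window.
Ncapd2, chr6:125191669-125191836, minus strand: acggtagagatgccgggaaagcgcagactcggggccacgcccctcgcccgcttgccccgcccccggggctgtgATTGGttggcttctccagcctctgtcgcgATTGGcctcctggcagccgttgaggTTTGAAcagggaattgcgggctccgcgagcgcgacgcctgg
Abcb1a, chr5:8566841-8567090, plus strand: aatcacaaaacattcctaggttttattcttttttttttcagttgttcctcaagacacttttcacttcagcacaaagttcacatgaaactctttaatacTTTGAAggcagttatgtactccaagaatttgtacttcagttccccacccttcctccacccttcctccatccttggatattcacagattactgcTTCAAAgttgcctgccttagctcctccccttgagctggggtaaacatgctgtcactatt

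The *Ncapd2* sequence holds 2 CCAAT boxes and 1 TTTGAA in 168 bases, and that of *Abcb1a* holds 0 and 2 in 250 bases. In windows of 250 bases before the start, TAATCC was found in 4.75% of the 421 windows of genes with all 6 CRX libraries below and in 5.04% of the 258 windows of genes with all 6 above. The share was 4.86% of the 10400 windows of all kept genes and 6.25% of all 32851 windows of the table. CCAAT was found in 38.2%, 31.0%, 34.9% and 33.8% of these windows in the same order, and TTTGAA in 10.7%, 7.75%, 10.2% and 16.0%. Among the lower genes, 324 of 422 matched the table, and among the higher genes 199 of 258. In a subset taken after the values had been seen, the lower genes of the mitosis and replication lists, 58.5% of 41 windows held CCAAT and 21.95% held TTTGAA, against 36.1% and 9.47% of the 380 windows of the other lower genes. These are shares of letters in windows, without a test.

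The collagen chains lay below control in all 6 libraries as a list. Of 25 listed 20 were kept, with a median of -0.91, and 9 had all 6 CRX libraries below all control libraries, but none was called. *Col1a1*, a chain of type I collagen and the most abundant, had 10004, 9204 and 7747 CPM in control and 1038 to 6483 CPM with CRX, with a median of 4994. *Col1a2* had 6583, 5461 and 6258 CPM in control and 1017 to 4112 CPM with CRX. The CRX libraries numbered 3 were the lowest in both genes, and the log2 fold changes were -1.56 ± 0.39 and -1.27 ± 0.32 (adjusted p = 0.175 for both by edgeR). *Col3a1* overlapped, with 295 to 6108 CPM with CRX against 9251, 6786 and 3690 CPM in control, at -1.76 ± 0.59. The median of the collagen chains was -0.37 without the libraries numbered 3.

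Other matrix genes were mixed, though mostly lower. Of 60 matrix glycoproteins, proteoglycans and lysyl oxidases 56 were kept, with a median of -0.55, 13 with all 6 CRX libraries below and 0 above, and 1 called, *Smoc1*. *Eln*, elastin, had 162, 107 and 105 CPM in control and 6.41 to 60.0 CPM with CRX, at -2.43 ± 0.48. The elastic fibre genes *Mfap4* at -2.14 and *Fbln5* at -1.39 had all 6 CRX libraries below, as did *Fndc1* at -2.63 and *Fmod*, which binds collagen fibrils, at -1.90. The 3 most abundant members overlapped between the groups, with *Thbs1* at -0.60 ± 0.24, *Sparc* at -0.68 ± 0.29 and *Spp1* (osteopontin) at 2.23 ± 0.89. *Spp1* had 1012, 1564 and 9314 CPM in control and 1603 to 24822 CPM with CRX, each above the control of its number. Without the libraries numbered 3 the median was -0.32. The 15 kept matrix metalloproteinases and TIMPs had a median of 0.06 and were split in direction. *Mmp2*, *Mmp14* and *Mmp23* had all 6 CRX libraries below at -0.55, -0.55 and -1.03, while *Mmp13* at 2.16 ± 0.58 and *Mmp3* at 1.71 ± 0.40 were higher than the same-numbered control in each CRX library and overlapped across numbers. Without the libraries numbered 1 the median of this list was -0.13.

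The smooth muscle and contractile list had 21 of 26 genes kept, all 21 with negative log2 fold changes, and a median of -0.71. All 6 CRX libraries lay below control for 13 of them and above for 0, and none was called. *Acta2*, smooth muscle actin, had 1375, 1674 and 2747 CPM in control and 125 to 931 CPM with CRX, with a median of 534 and a log2 fold change of -1.88 ± 0.58. *Tagln*, an actin-binding protein of the same programme, had 915, 983 and 1313 CPM in control and 161 to 716 CPM with CRX. *Actg2* at -2.58, *Lmod1* at -2.31, *Cnn1* at -2.17 and *Myl9* at -1.52 had all 6 CRX libraries below, and so had *Srf*, which drives transcription of such genes, at -0.53. The abundant *Tpm1* and *Cald1*, which many cells use, overlapped at -0.31 ± 0.19 each. The median was -0.38 without the libraries numbered 3. Related to this list, the 23 kept genes of the TGF-beta and YAP response had a median of -0.29 and 1 gene with all 6 below, the receptor *Tgfbr2* at -0.48.

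**Figure D3:**
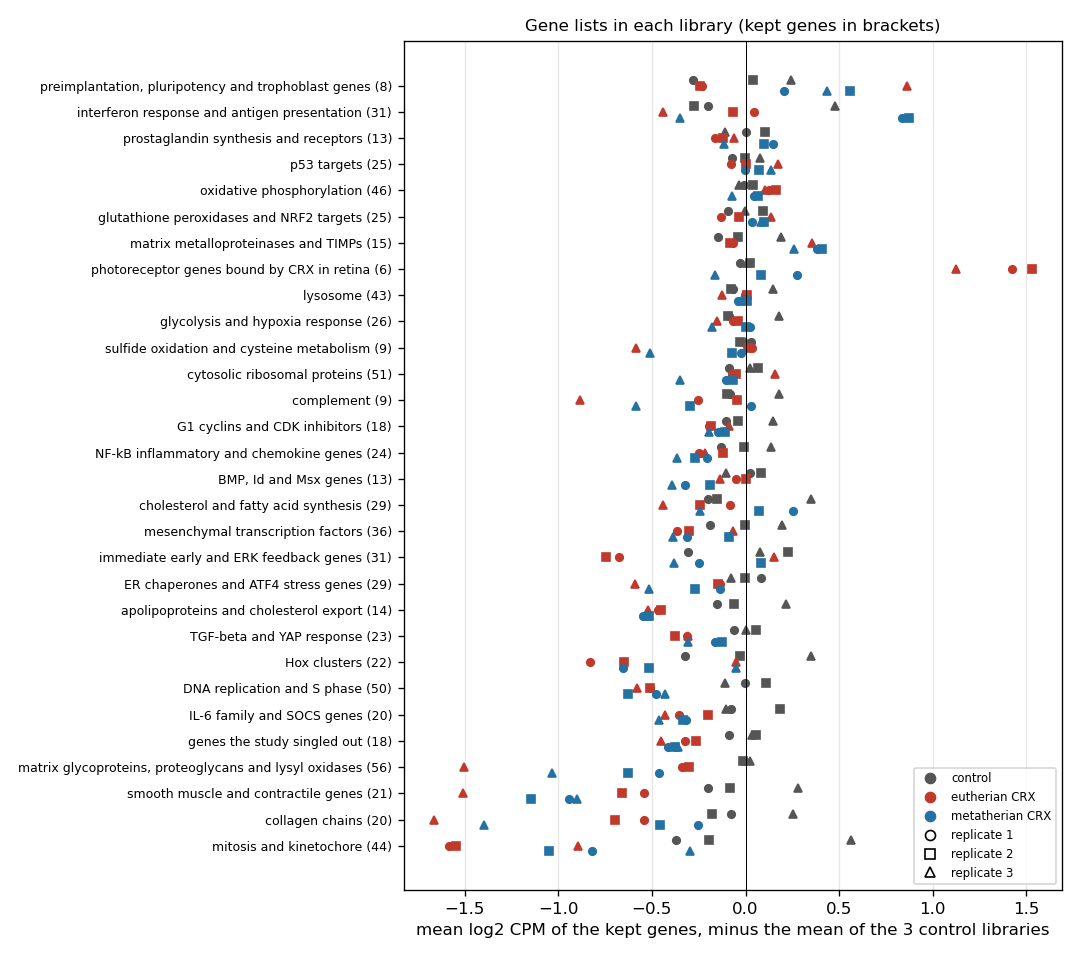
For each list, the mean log2 CPM of its kept genes (number in brackets) in each library, minus the mean of the 3 control libraries, with colour for the condition and shape for the replicate number. DNA replication, collagen, matrix and contractile genes have all 6 CRX libraries to the left of all control libraries, whereas mitosis genes span -1.58 to -0.30 with CRX and -0.37 to 0.57 in control. The score of the photoreceptor list rests on *Crx* reads in the eutherian CRX libraries.

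Genes of the endoplasmic reticulum and of ATF4 also lay below as a list, though most members overlapped. Their mean log2 CPM, relative to the mean of control, was -0.08 to 0.08 in the control libraries and -0.59 to -0.14 in the CRX libraries. Of 30 listed 29 were kept, with a median of -0.25, 6 with all 6 CRX libraries below and 0 above, and 1 called, *Slc7a5*. *Atf4*, the transcription factor of the amino acid and stress response, had 252, 264 and 218 CPM in control and 167 to 203 CPM with CRX, at -0.38 ± 0.08 (adjusted p = 0.135 by edgeR). Of its known targets, *Slc7a5*, *Chac1* at -0.92 and *Mthfd2* at -0.63 had all 6 below. *Trib3* at -0.79, *Asns* at -0.33 and *Sesn2* at -0.27 overlapped, but each CRX library lay below the control of its number. *Psat1* at -0.12, *Phgdh* at -0.01 and *Ddit3* at 0.05 overlapped and were mixed by number. Over the list, 13 of 29 genes were lower than the same-numbered control in each CRX library and 0 higher, against 9.81% and 7.34% of all genes. The chaperones *Calr*, with 1996, 1958 and 1868 CPM in control and 1057 to 1839 CPM with CRX, and *Hsp90b1* were at -0.35 and -0.36 with all 6 below, and *Pdia3* overlapped at -0.06 ± 0.13. This median was -0.15 without the libraries numbered 3.

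Genes of growth factor and cytokine signalling were divided. Of 31 kept immediate early and ERK feedback genes, 4 had all 6 CRX libraries below and 0 above, with a median of -0.17 and 1 called, *Spry1*. With 1 library left out the median ran from -0.30 (without eutherian CRX replicate 3) to -0.05 (without control replicate 2). *Gadd45g* at -1.34, *Klf2* at -0.89 and *Zfp36* at -0.66 were the others. *Spry2* and *Spry4*, paralogues of *Spry1*, were at 0.03 ± 0.18 and 0.48 ± 0.36, and *Dusp6*, another ERK feedback gene, at 0.84 ± 0.60, each overlapping. *Fosl2* was at -0.32, *Klf6* at 0.09 and *Jun* at -0.12. The IL-6 family and SOCS list had 20 kept genes with a median of -0.42. *Socs3*, the feedback inhibitor of STAT3 signalling, had 69.5, 77.2 and 44.1 CPM in control and 18.8 to 42.8 CPM with CRX, at -0.99 ± 0.16 (adjusted p = 0.0622 by edgeR). *Stat3* at -0.44 and *Bcl3* at -1.03 also had all 6 below, *Il6st*, the shared receptor subunit gp130, was at -0.87 and *Jak1* at -0.13. Without the libraries numbered 3 the median of this list was -0.22.

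The Hox genes differed by cluster, a grouping made after the values had been seen, and the difference between clusters was not tested. Hox genes are known to keep, in cultured fibroblasts, a record of the body position from which the cells came. Of 39 listed 22 were kept, none was called, and 1, *Hoxa11*, had all 6 CRX libraries on 1 side, above. Of the 6 kept *Hoxb* genes 4, and of the 5 kept *Hoxc* genes 2, passed the filter through control alone, so their direction is in part fixed by it. Among all Hox genes with any count, with no other filter, all 6 CRX libraries were below the control of their number for 8 of 9 *Hoxb* genes, with a median of -1.08, and for 8 of 9 *Hoxc* genes, with a median of -1.01, against 9.03% of all genes in that fit. There 7 of 11 *Hoxa* genes were negative, with a median of -0.20, and 4 of 9 *Hoxd* genes, with a median of 0.06. By number, 3 of the 11 *Hoxa* genes were below in all 6 CRX libraries and 1 above. Of the 9 *Hoxd* genes 2 were below and 2 above. The log2 fold changes of the 6 kept *Hoxb* genes ran from -1.40 to -0.70. The 6 kept *Hoxa* genes had a median of 0.02 and the 5 kept *Hoxd* genes of 0.29, with *Hoxa11*, *Hoxd10* and *Hoxd11* above the control of the same number at 0.32, 0.44 and 0.51. *Hoxb8* had 2.93, 5.64 and 11.4 CPM in control and 1.25 to 6.18 CPM with CRX. Its libraries numbered 3 were the highest of each condition, and control replicate 1 lay below the CRX libraries numbered 3.

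**Figure D4:**
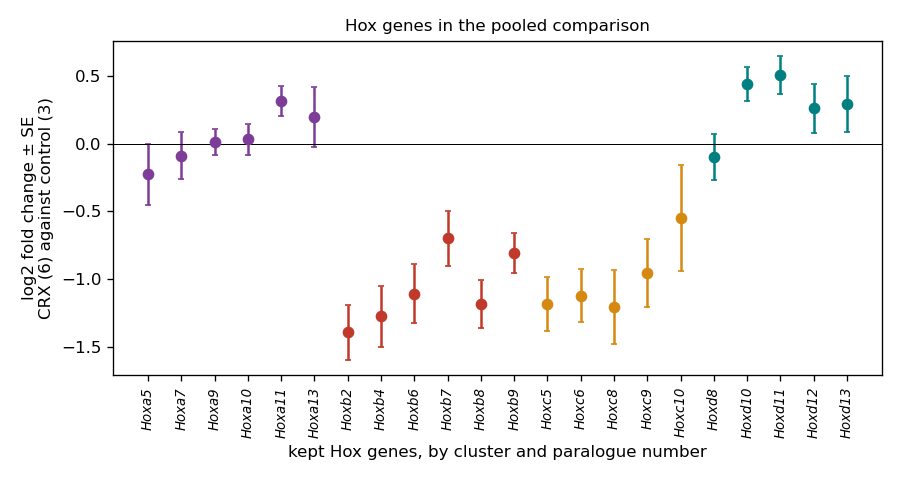
Log2 fold change with SE of the 22 kept Hox genes, 6 CRX against 3 control libraries, ordered by cluster (a to d, in colours) and paralogue number. Every *Hoxb* and *Hoxc* gene lies below 0, from -1.40 to -0.55, and the *Hoxa* and *Hoxd* genes lie between -0.23 and 0.51.

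Among groups with positive medians, the mean levels of the oxidative phosphorylation and proteasome genes overlapped between CRX and control, and that of the CCT chaperonin did not. Of 46 kept genes of oxidative phosphorylation, 36 were positive with a median of 0.10, 11 had each CRX library above its same-numbered control and 0 below, and 5 had all 6 above all control libraries. *Atp5b*, a subunit of ATP synthase, had 955, 1004 and 987 CPM in control and 1028 to 1144 CPM with CRX, at 0.15 ± 0.10 (adjusted p = 0.561 by edgeR). *Cox4i1* at 0.16 and *Cox6b1* at 0.11 overlapped. The CCT chaperonin, which folds actin and tubulin, was grouped after its values had been seen. All 8 kept subunits were positive, 5 had all 6 CRX libraries above, and the median was 0.21, with 0 at an unadjusted p under 0.05. The mean log2 CPM of the subunits, relative to the mean of control, was -0.11 to 0.064 in the control libraries and 0.11 to 0.40 in the CRX libraries. *Cct8* had 520, 499 and 421 CPM in control and 528 to 641 CPM with CRX. The 36 kept proteasome subunits, grouped likewise, had a median of 0.11 and 5 with all 6 above.

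The Reactome sets were scanned in the same way, as the mean log2 CPM of the kept genes in each library. Of 758 sets with 10 to 300 kept genes, 75 had all 6 CRX libraries below all control libraries and 18 had all 6 above. Against the control of the same number, 133 were below and 47 above. The sets share many genes, so these are not separate results. The widest gaps below control were in Scavenging by Class A Receptors, with 11 genes and a median log2 fold change of -0.91, a set that holds collagens, and in Lipoprotein metabolism, with 10 genes and a median of -0.28. Elastic fibre formation with 34 genes, Smooth Muscle Contraction with 21 and DNA strand elongation with 29 followed. The sets above control were mostly ones that hold the proteasome, with medians near 0.11, and also ABC-family proteins mediated transport with 18 genes and Purine metabolism with 30.

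Genes of lipid transport lay below as a list, with 14 kept and a median of -0.28, which was -0.11 without the libraries numbered 3. *Apoe* had 16.1, 16.0 and 29.9 CPM in control and 3.55 to 10.1 CPM with CRX, at -1.57 ± 0.27, and *Lpl*, lipoprotein lipase, and *Apod* were at -1.82 and -1.44 with all 6 below. The 11 others overlapped, among them the most abundant, *Lrp1* at 0.14, *Pltp* at -0.07 and *Clu* at -0.30, and the exporter *Abca1* at 0.08. Of the genes the study itself singled out, 18 of 19 were kept and none was called. The median was -0.44, -0.24 with eutherian and -0.70 with metatherian CRX, and the mean log2 CPM lay below all control libraries in all 6 CRX libraries. *Lmod1*, *Serping1* and *Apod* had all 6 below and *Rbpj* all 6 above. The list was chosen on these libraries, so its direction is not independent evidence, and its median was -0.25 without control replicate 3. *Hbegf*, an EGF receptor ligand, had 117, 196 and 95 CPM in control and 88.7 to 271 CPM with CRX, at 0.51 ± 0.42. *Ptgs2*, which makes prostaglandins, was at 0.31 ± 0.44 and *Smarca1*, a chromatin remodeller, at -0.56 ± 0.33, each overlapping. These pooled values average over both orthologues, whose own values, set against the same control libraries, were 0.07 (eutherian) and 0.80 (metatherian) for *Hbegf*, -0.37 and 0.74 for *Ptgs2* and -0.32 and -0.80 for *Smarca1*. Over all alternatives the pooled log2 fold changes ran from 0.14 to 0.87, from 0.016 to 0.65 and from -0.80 to -0.25, the weakest being without the libraries numbered 3 for *Hbegf*, without metatherian CRX replicate 1 for *Ptgs2* and without control replicate 3 for *Smarca1*.

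In the other lists at most 2 genes lay on either side of all control libraries in all 6 libraries. Against the same-numbered control, 10 of 36 mesenchymal transcription factors were lower in each CRX library and 2 higher, 5 of 24 NF-kB and chemokine genes were lower and 0 higher, and 3 of 9 complement genes lower and 0 higher. The mean log2 CPM of the mesenchymal, BMP and NF-kB lists was below the same-numbered control in each CRX library and overlapped across numbers. The medians were -0.17 for 36 kept mesenchymal transcription factors, -0.12 for 13 BMP, Id and Msx genes, -0.08 for 24 NF-kB and chemokine genes, -0.06 for 9 complement genes and -0.13 for 29 genes of cholesterol and fatty acid synthesis. They were 0.12 for 31 interferon and antigen presentation genes, 0.11 for 13 prostaglandin genes, 0.07 for 25 NRF2 and glutathione peroxidase genes, 0.02 for 43 lysosomal genes and 0.46 for 8 preimplantation and trophoblast genes. Glycolysis and hypoxia with 26 genes, cytosolic ribosomal proteins with 51 and sulfide oxidation with 9 had medians of -0.0012, -0.04 and -0.0073, and in the last of these *Sqrdl* was the member that rose. Without the libraries numbered 3 the medians were -0.03 for the mesenchymal factors, 0.20 for cholesterol and fatty acid synthesis and 0.66 for the interferon genes, and the last was -0.12 without those numbered 1. The interferon median was -0.20 with eutherian and 0.34 with metatherian CRX, and that of cholesterol and fatty acid synthesis -0.29 and 0.06, so each pooled value averages opposite signs, a difference that was not tested for the lists. The other medians in these lists moved with single libraries too, from 0.24 (without metatherian CRX replicate 2) to 0.60 (without eutherian CRX replicate 2) for the preimplantation genes, 0.04 to 0.18 for prostaglandin, -0.29 to -0.05 for BMP, -0.18 to -0.02 for NF-kB and 0.01 to 0.14 for NRF2. They crossed 0 for complement, lysosome, glycolysis, ribosomal proteins and sulfide oxidation.

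Markers of other cell types differed in summed level, with the neuronal and glial list the highest of them. Of 28 macrophage and leukocyte markers 5 were kept, 2 of them through control alone, with a median of -1.14 (-0.68 with eutherian and -1.91 with metatherian CRX), and the summed level of the list was 31.2 to 78.4 CPM in control and 12 to 43.8 CPM with CRX. Over the 9 libraries the T cell marker *Cd3e* had 0 counts, the leukocyte marker *Ptprc* 339, and the macrophage markers *Itgam*, *Emr1* and *Csf1r* 192, 509 and 1988. *Cd68* and *Siglecg* had all 6 CRX libraries below, and *Ctss* overlapped at -1.14. Among the 27 markers with any count, with no other filter, 21 were negative, with a median of -0.95, and 12 had all 6 CRX libraries below the control of their number. The median of the 5 ran from -1.81 (without eutherian CRX replicate 1) to -0.82 (without metatherian CRX replicate 1). *Lyz2*, lysozyme of macrophages, had 23.5, 8.63 and 4.21 CPM in control and 0.512 to 12.1 CPM with CRX. These markers were lower together with *Apoe*, *Lpl* and the cytokine list, and their part in those values was not tested. Endothelial markers summed to 63.5 to 70.1 CPM in control and 44.4 to 61.3 CPM with CRX, with *Cldn5* at 0 counts. Epithelial markers summed to 14.5 to 20.5 and 16.4 to 33.8 CPM, neuronal and glial markers to 280 to 291 and 289 to 360 CPM, adipocyte markers to 78.1 to 134 and 73.7 to 118 CPM, and skeletal muscle markers to 28.2 to 116 and 17.5 to 43.8 CPM. The fibroblast markers lay below control as a list, with the mean log2 CPM of all 6 CRX libraries under all control libraries and a median log2 fold change of -0.41. Of the 16, 13 were negative, 7 were lower than their same-numbered control in each CRX library and 1, *Pdgfra* at 0.41, was higher. The collagen genes *Col1a1* and *Col1a2* had all 6 below all control libraries, and the abundant *Vim* overlapped at -0.07.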

How the data were processed

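RNA-seq of 9 MEF libraries was analysed from raw counts per gene, which the authors deposited after alignment with STAR to mm10 (GRCm38) and counting with featureCounts, without normalization. The annotation release and strand setting are not given in the sources used here. Members and lists were chosen with earlier results of these data known.

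The tools were R 4.3.3, limma 3.58.1 and edgeR 4.0.16. Genes were kept where filterByExpr passed them with the 3 conditions as groups (14599) and the mean FPKM, computed here from the counts and merged exon lengths, exceeded 2 in at least 1 condition (10100 of 22068, of which 3756 had no count). TMM scaling and the quasi-likelihood test were used with arm and replicate number as terms, because the study's text speaks of paired preparation, though it does not tie pairs to replicate numbers. Adjustment was by Benjamini-Hochberg over all kept genes, and SE is the log2 fold change over the square root of F. CPM use TMM-scaled library sizes, and log2 CPM a prior count of 2. Floors and totals cover counting error only. Every replicate pair differed beyond sampling noise (chi-square per degree of freedom of at least 22.0). Reactome sets came with an R package, with 10061 genes matched.

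Genes named are called genes with all 6 CRX libraries on 1 side, filled to 12 in each direction by p, then in 10 lists the 3 members of highest FPKM and called members, and *Crx*, *Hbegf*, *Ptgs2* and *Smarca1*. Alternatives were no block, 3 conditions, 2 other scalings, DESeq2 1.42.0, limma voom with quality weights, 3 filters, 3 thresholds, a prior count of 0.5, and libraries left out. Promoter sequences are of RefSeq, GRCm38.p6.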

Additional observations from a re-analysis of the deposited data

Results flagged for a closer look

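Among 60 named genes and 37 list scores, 4 had 1 CRX library far from the other 5, where chance gives about 1 in 20. Metatherian CRX replicate 3 was highest for *Wbscr17*, with a gap of 0.692 of the range (log2 CPM of 5.55 against 4.26 to 4.66 in the others), for *Spry1*, with 0.645 (4.05 against 2.92 to 3.32), and for *Adam12*, with 0.648 (4.18 against 3.13 to 3.50). All 3 of these genes were also highest in control replicate 3 among the control libraries. Eutherian CRX replicate 3 was lowest for *Pdia3*, with 0.637 (10.5 against 10.8 to 11.0).

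Of the 11968 genes that were not kept, 2 had at most 3 counts in each control library and at least 10 in each library of a CRX condition. *Otx2*, the homeobox relative of *Crx*, had 44 counts over the 6 CRX libraries, of which 11, 15 and 17 were in the metatherian CRX libraries, against 1 over the 3 control libraries. *Otx1*, another relative, had 11, 13 and 4 counts with eutherian CRX, 2, 0 and 0 with metatherian CRX and 0, 6 and 0 in control. Whether reads of the introduced *CRX* reached these 2 genes was not tested. *Sult1e1*, the estrogen sulfotransferase, had 146 counts, namely 49, 66 and 22 with metatherian CRX and 0, 0 and 9 with eutherian CRX, against 0 in control. Neither *Otx2* nor *Sult1e1* was part of any comparison above.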

How the results depend on the processing

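All 13 called genes remained called with relative log expression or upper-quartile factors (1 higher, 12 lower each), with 3 conditions and the replicate block (9 higher, 89 lower), DESeq2 (97, 339), limma voom with quality weights (999, 1217), filterByExpr alone (2, 19), no filter (6, 63) and, chosen after seeing the data, a filter on the mean FPKM over all 9 libraries (3, 22). At an adjusted p under 0.1 there were 9 and 92, under 0.01 0 and 0, and at an unadjusted p under 0.05 458 and 822. The fit without the replicate block gave 0 and 0. The study's text speaks of paired preparation without tying it to replicate numbers, and 8 of 9 pairs of libraries with the same number, and 5 of 18 with different numbers, had deviations correlated above 0.1, which leaves the pairing unproven. Leaving out 1 library gave 0 to 1 higher and 0 to 22 lower calls, and leaving out all 3 libraries of a number gave 0 and 0 each time. With 1 library left out, genes with all CRX libraries above all control libraries numbered 301 to 601, below 456 to 738, above the control of the same number 827 to 1525 and below it 1044 to 1632. These counts rise by construction with fewer libraries, and without number 1 they were 734, 874, 1267 and 1488, without number 2 626, 720, 1384 and 1577, and without number 3 991, 1177, 1488 and 1652. With filterByExpr alone they were 363, 645, 1129 and 1511. The log2 fold change of *Orc6*, which was not called, ran from -0.17 (without control replicate 3) to 0.088 with 1 library left out and turned positive without a filter (0.0029), without control replicate 1 (0.088) or 2 (0.021), without metatherian CRX replicate 1 (0.047) or 2 (0.051) and without number 1 (0.088) or 2 (0.024). That of *Pdia3*, also not called, turned positive without eutherian CRX replicate 3 (0.0077) and with 1 library left out reached -0.12 (without metatherian CRX replicate 3). The cause was not tested.

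With 1 library left out, the list medians ranged from -1.23 to -0.93 for mitosis, -0.50 to -0.34 for DNA replication, -1.17 to -0.36 for collagens, -0.72 to -0.32 for other matrix genes and -0.89 to -0.38 for contractile genes, the weakest values in the last 3 being near those without number 3. The interferon list ranged from -0.13 to 0.66. No median of a list whose groups did not overlap changed sign.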
